A study of Mus musculus with 4 samples.

Results

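Of the 65008 ATAC-Seq peaks in GFP+ (endothelial) nuclei of the mouse heart, 13998 lay at a promoter, and 479 of these were found only in GFP+ nuclei. A promoter peak was defined by its summit, the point of strongest signal, lying within 1000 bp of the start of a GENCODE mm10 (GRCm38) protein-coding transcript. A peak was called GFP+ only when it had no overlap, not even 1 bp, with any of the 78912 peaks of the GFP- (non-endothelial) list. The members were therefore selected on the readout itself, the presence or absence of a called peak in each list. Their number is a description: 3.42% of the GFP+ promoter peaks were GFP+ only, against 13.4% of all GFP+ peaks. In the opposite direction, 1345 of 14497 GFP- promoter peaks, or 9.28%, were GFP- only. The 479 peaks lay at the starts of 458 of 21670 protein-coding genes (2.11%), and 8 of them were near the starts of more than 1 gene. A peak was assigned to the main start of a gene when its summit was within 1000 bp of the start of an APPRIS principal transcript. APPRIS selects such transcripts for the gene's reference protein, and a gene can have several. All others were assigned to an alternative start. By this division 307 peaks were at main starts and 172 at alternative starts. The tag does not measure how much a start is used. Of the 172, 35 were within 1000 bp of the 5′ end of a gene record, and 74 of the 307 were not.

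The nuclei came from whole hearts of male C57BL/6 NuTRAP/Cdh5-Cre mice aged 8 to 12 weeks, and both populations carried these alleles. Cre made from the *Cdh5* promoter, which is active in endothelium, switches on the GFP reporter, and flow cytometry then separated GFP+ from GFP- nuclei. There were 2 libraries for each population, of 100 to 50000 nuclei each, and the authors deposited 1 peak list per population that draws on both libraries. These lists hold no read counts, and the libraries cannot be compared one by one in them. Differences between GFP+ and GFP- nuclei therefore have no replicate check here. The depth behind a peak is unknown, although the libraries were brought to a common number of reads before calling. The study itself tested differential accessibility between the GFP+ and GFP- heart nuclei with DiffBind, and that test was not repeated here. Because recombination by Cre is permanent, the reporter also stays on in any descendant of a cell that once expressed *Cdh5*, including blood cells that arise from hemogenic endothelium.

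An active promoter is nucleosome-depleted, and ATAC-Seq reads this as a peak because the Tn5 transposase inserts into accessible DNA. Many mammalian promoters are CpG islands that are accessible in most cell types, whereas promoters of genes restricted to a cell type are often poor in CpG and depend on that cell type's transcription factors. In endothelium these include ETS factors such as ERG, FLI1 and ETV2, and SOX factors of the SOXF group, SOX7, SOX17 and SOX18. A gene can also have several promoters, so that a cell type may open a start of its own inside a gene whose main start is accessible everywhere.

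The sequences below come from RefSeq (GRCm38.p6) around the summits of 7 GFP+ only promoter peaks, and show how the words counted later fall in promoters that hold them. They were chosen after their matches were known, from genes of endothelial biology, and are not typical, since the ETS word was in 3 and the SOX word in 1 of 49 members at such genes, with stretches annotated as UTR cut off. Each is written 5′ to 3′ on the strand of the gene, with capitals for the ETS cores CAGGAA and CCGGAA, the SOX core CATTGT, the longer words CAGGAAGT and CCATTGT and the KLF/SP word GGGCGGG, or their reverse complements. *Ccm2l* (chr2:153065843-153065997, plus strand) and *Egfl7* (chr2:26580831-26581030, plus) are main starts without a CpG-rich window. *Vwf* (chr6:125552767-125552947, plus) is the main start of a clotting protein. *Erg* (chr16:95459349-95459502, minus), *Sox17* (chr1:4497392-4497591, minus), *Fli1* (chr9:32543492-32543691, minus) and *Elk3* (chr10:93285651-93285850, minus) are alternative starts of endothelial transcription factors.
Ccm2l: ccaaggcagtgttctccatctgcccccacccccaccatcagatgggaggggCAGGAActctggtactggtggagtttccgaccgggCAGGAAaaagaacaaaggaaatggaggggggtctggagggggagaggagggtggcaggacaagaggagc
Egfl7: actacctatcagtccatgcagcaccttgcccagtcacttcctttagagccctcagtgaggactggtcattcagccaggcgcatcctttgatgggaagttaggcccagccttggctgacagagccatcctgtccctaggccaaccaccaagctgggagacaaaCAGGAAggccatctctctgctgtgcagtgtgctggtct
Vwf: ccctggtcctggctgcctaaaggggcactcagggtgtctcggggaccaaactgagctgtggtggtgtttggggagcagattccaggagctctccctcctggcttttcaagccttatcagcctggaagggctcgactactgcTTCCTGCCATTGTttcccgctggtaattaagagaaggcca
Erg: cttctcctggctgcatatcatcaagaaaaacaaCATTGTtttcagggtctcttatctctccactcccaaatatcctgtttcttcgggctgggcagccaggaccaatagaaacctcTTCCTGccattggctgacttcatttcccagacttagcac
Sox17: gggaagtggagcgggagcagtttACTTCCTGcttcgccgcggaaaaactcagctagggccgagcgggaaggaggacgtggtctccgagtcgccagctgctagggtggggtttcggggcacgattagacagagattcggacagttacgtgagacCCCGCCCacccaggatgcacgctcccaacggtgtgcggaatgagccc
Fli1: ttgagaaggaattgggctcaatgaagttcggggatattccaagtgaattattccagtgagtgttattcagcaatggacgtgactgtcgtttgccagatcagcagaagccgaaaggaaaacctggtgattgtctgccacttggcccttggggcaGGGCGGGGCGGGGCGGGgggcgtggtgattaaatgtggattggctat
Elk3: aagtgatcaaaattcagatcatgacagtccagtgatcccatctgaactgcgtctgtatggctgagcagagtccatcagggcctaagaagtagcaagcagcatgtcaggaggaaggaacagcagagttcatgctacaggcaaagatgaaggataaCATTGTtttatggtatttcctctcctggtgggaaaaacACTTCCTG
*Ccm2l* holds the ETS core CAGGAA at 2 places and *Egfl7* at 1. In *Vwf* the complement of CAGGAA runs directly into the SOX word CCATTGT, and *Erg* holds a SOX core followed by the complement of CAGGAA. *Sox17* and *Elk3* hold the complete ETS word CAGGAAGT as its complement, and *Fli1* holds neither an ETS nor a SOX core in this stretch but a run of KLF/SP words. A match of letters describes the sequence and does not show that a factor binds there.

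The label of the population was checked against 15 endothelial markers. All 15 had a promoter peak in the GFP+ list and 10 had one in the GFP- list. Their median best rank was 79.7 in GFP+ and 18.0 in GFP- nuclei, where the rank is the percentile of a peak by area within its own list, from 0 for the smallest to 100 for the largest, and an absent peak counts as 0. The area is the caller's signal summed over the peak. For 14 of the 15 markers the GFP+ rank was the higher, and the exception was *Tek*, a receptor for angiopoietins, at 54.1 in GFP+ and 81.1 in GFP-. GFP+ only promoter peaks were found at 7 of the markers, *Cdh5*, *Pecam1*, *Erg*, *Emcn*, *Egfl7*, *Sox17* and *Vwf*. Markers of other cells were present in the GFP+ list as well: 22 of 25 cardiomyocyte markers had a GFP+ promoter peak and 21 a GFP- one, with median best ranks of 89.4 and 89.6. For fibroblast markers the counts were 8 and 19 of 20, and for pericyte and smooth muscle markers 8 and 16 of 20. The part of such cells in the counts given here was not tested.

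Most GFP+ only promoter peaks were small. Their median area was 303, close to the smallest area in the list, which is 200, and 49.1% of them had an area under 300. Their median rank was 16.6 (quartiles 6.77 and 33.3), against 86.5 for the 13519 promoter peaks shared with the GFP- list, and their median length was 392 bp against 1056 bp. The median rank was 15.6 at main starts (12.9 to 19.3) and 17.6 at alternative starts (14.2 to 22.3). A rank over 50 was reached by 59 of the 479 peaks, 38 at main and 21 at alternative starts, and no member ranked above 78.4. The GFP- only promoter peaks ranked higher in their own list, with a median of 24.97 (22.6 to 27.3) against 16.6 (14.2 to 19.3) for the members. Overlap and area come from the same call that chose the members, so these values are given as a description.

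**Figure D1:**
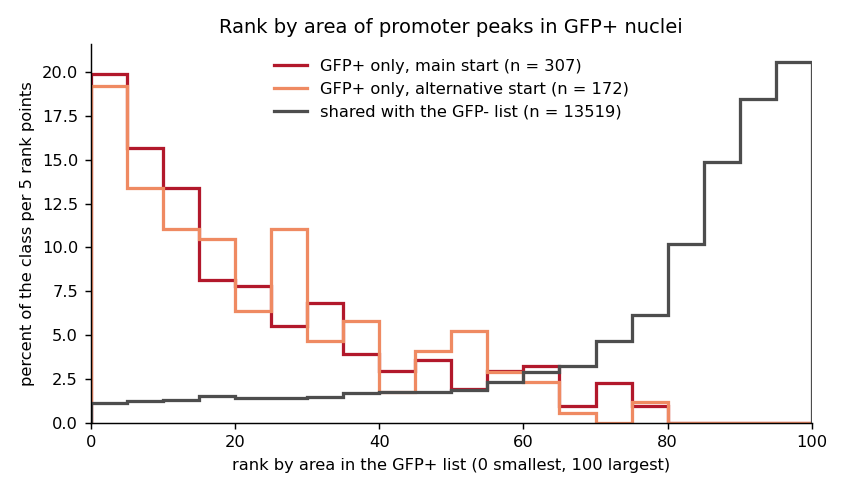
Percent of each class of GFP+ promoter peaks (y axis) per 5 points of rank by area within the GFP+ list (x axis, 0 smallest to 100 largest), for GFP+ only peaks at main starts, at alternative starts and for peaks shared with the GFP- list. GFP+ only peaks gather at low ranks, with medians of 15.6 and 17.6, and shared peaks at high ranks, with a median of 86.5.

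The largest GFP+ only peaks at main starts included well known endothelial genes. *Adgrl4* (chr3:151437557-151438221), an adhesion GPCR of endothelium, had a rank of 75.2, with the summit 36 bp downstream of the start. *Ccm2l* (chr2:153065602-153066523), a partner of the cerebral cavernous malformation proteins, had a rank of 73.5. *Adgrf5*, another adhesion GPCR of endothelium, had a rank of 70.9. *Egfl7* (chr2:26580624-26581519), a protein that endothelial cells secrete into the vessel wall matrix, had a rank of 70.3, and *Pecam1* (chr11:106714996-106715812), which encodes the junction protein CD31, had a rank of 66.9. The nearest GFP- peak was 12964 bp away at *Adgrl4*, 32911 bp at *Ccm2l*, 23283 bp at *Adgrf5*, 1744 bp at *Egfl7* and 7005 bp at *Pecam1*. No GFP- peak lay at any start of *Adgrl4*, *Ccm2l* or *Pecam1*, whereas other main starts of *Adgrf5* and *Egfl7* had GFP- peaks of rank 8.34 and 72.6.

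Other peaks among the 15 largest at main starts lay at genes of less settled or other roles. The largest of all, at rank 78.4 (area 1951), was at *4930578C19Rik* on chromosome X, followed by *Fam124b* at 75.4. *Rassf9*, of the RASSF family, had a rank of 72.4 and lay 199745 bp from any GFP- peak, and *Lnx1*, a ubiquitin ligase that binds Numb, had a rank of 71.8 but lay only 78 bp from a GFP- peak. *Ang2*, which encodes a secreted ribonuclease and is not the angiopoietin gene *Angpt2*, had a rank of 70.7. *Pdgfd*, a platelet-derived growth factor, had a rank of 70.5, and *Gngt2*, a G protein gamma subunit, had a rank of 67.2. At *Pdgfd* and *Gngt2* a GFP- peak lay only 139 bp and 113 bp away, and larger GFP+ peaks that were shared, of rank 87.5 and 87.0, were at their main starts. The remaining members of this group were *Gimap8* and *Gimap4*, GTPases of the immunity-associated protein family, at 67.3 and 65.0, and *Grrp1* at 65.0.

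The members at endothelial transcription factors fell into factors with no GFP- peak at any start and factors where the member was added to an open promoter. Of 40 such factors in a list compiled for the purpose, 10 had a GFP+ only promoter peak. *Sox17*, a SOXF factor of arterial endothelium, had a member at its main start (chr1:4496297-4497127, rank 54.0) and another upstream, at -1079 bp from the principal start, at an alternative start (chr1:4497270-4497639, rank 56.2), and the nearest GFP- peak was 46755 bp and 46243 bp away. *Erg*, an ETS factor that maintains endothelial identity, had members at ranks 57.5 (chr16:95459289-95459778) and 21.9 on either side of a single alternative start. These lie 70962 bp and 71263 bp inside the gene, counted from the principal start, which had no peak in either list. At *Fli1*, another ETS factor, the principal start had a GFP+ peak of rank 95.1 and a GFP- peak of rank 16.5, and the 2 members (ranks 49.6 and 13.3) were upstream of it at an alternative start. The smaller of them was 12 bp from a GFP- peak, the shortest gap of any member.

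At *Tal1*, a bHLH factor shared by endothelium and blood, a member of rank 61.4 lay 385 bp inside the main start, which also had shared peaks up to rank 90.0 in GFP+ and 76.0 in GFP- nuclei. The remaining factors had weaker members beside starts that were accessible in both populations. *Prdm1*, *Elk3*, *Tcf4* and *Hhex* had them at alternative starts (ranks 26.8, 21.6, 28.8 and 4.81), and *Meox1* and *Nfatc1*, a factor of endocardium and valves, at main starts (19.4 and 14.97). Each of these 6 genes had a GFP- peak at its main start, from rank 40.8 for *Meox1* to 92.4 for *Nfatc1*.

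Among 27 genes of endothelial junctions and adhesion, 7 had a member. *Pecam1* and *Emcn* (endomucin, rank 61.7, chr3:137340924-137341536), a sialomucin of venous and capillary endothelium, had a member as their only promoter peak and no GFP- peak at any start, as did *Mmrn2*, an extracellular matrix protein of vessels, with 2 members at ranks 43.6 and 4.79. At *Cdh5*, the VE-cadherin gene whose promoter drives the Cre, the main start had peaks of rank 85.3 (GFP+) and 18.0 (GFP-), and the member (rank 28.5) was at an alternative start 9192 bp inside the gene. *Icam2* had 2 members at alternative starts (22.9 and 13.5), and *Egfl7* had a second member at an alternative start (58.0), 124 bp from a GFP- peak. *Ecscr*, an endothelial surface protein, had a member of rank 44.8 at a main start that also had peaks in both lists.

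In signalling, 6 of 29 genes of vascular tone and endothelial GPCRs had a member. Besides *Adgrl4* and *Adgrf5*, *Ramp3*, a coreceptor for adrenomedullin, had a member of rank 42.6 and no GFP- peak. *Nos3*, the endothelial nitric oxide synthase (37.9), *S1pr1*, a receptor for sphingosine 1-phosphate (4.27), and *Aplnr*, the apelin receptor (1.57), had a member next to a start whose best GFP+ peak ranked 85.5, 86.0 and 70.3. Members were also found at genes of other pathways. In 18 genes of VEGF and angiopoietin signalling there were 2, *Ptprb*, which encodes the phosphatase VE-PTP (3.89), and *Dok4* (1.24). In 21 genes of BMP and TGF-β signalling there were 3, the receptor *Acvrl1* (ALK1, 28.2), *Smad9* (11.1) and *Ltbp4* (4.06), and in 16 Notch genes there was 1, the ligand *Jag2* (30.6). None of *Kdr*, *Flt1*, *Tie1*, *Tek* and *Cldn5* had a member, and each had a promoter peak in both lists.

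Of 18 genes of fatty acid handling, 3 had a member. *Fabp4*, a fatty acid binding protein of capillary endothelium, had a rank of 59.9 (chr3:10208351-10208866), *C1qtnf9* had 45.2 and *Rbp7*, a retinol binding protein, had 26.2. All 3 were at main starts without a GFP- peak at any start of the gene. Of 23 genes of haemostasis, transport and caveolae, 4 had one. *Plvap*, which forms the diaphragms of fenestrae and caveolae, had a rank of 47.9 and *Vwf*, von Willebrand factor, had 7.78, both without a GFP- peak. *Stab1*, a scavenger receptor, and *Cav2*, caveolin 2, had members of rank 27.7 and 24.6 beside starts that were accessible in both lists. *Vwf* was also in the list of 15 lymphatic and endocardial genes, where *Reln* (reelin, 31.4) was the other.

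In all, 43 of the 235 genes in 10 lists of endothelial function, 1 of which is not described singly, (18.3%, Wilson 95% interval 13.9 to 23.7%) had a member, against 2.11% of all protein-coding genes. The 10 lists were compiled with earlier results of these data known, so this share is a description. Intervals here and below cover counting error over genes or peaks only. The 43 genes held 49 members, 30 at main and 19 at alternative starts, with ranks from 1.24 to 75.2 and a median of 28.8, against 16.6 over all members. No GFP- peak was at any start of 16 of the genes. The other 27 had a GFP- peak, and the best GFP+ peak ranked above it in 23 of them and below it in 4. The genes with the strongest members were mostly those with no GFP- peak, and members with a rank under 30 were mostly beside a shared peak.

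**Figure D2:**
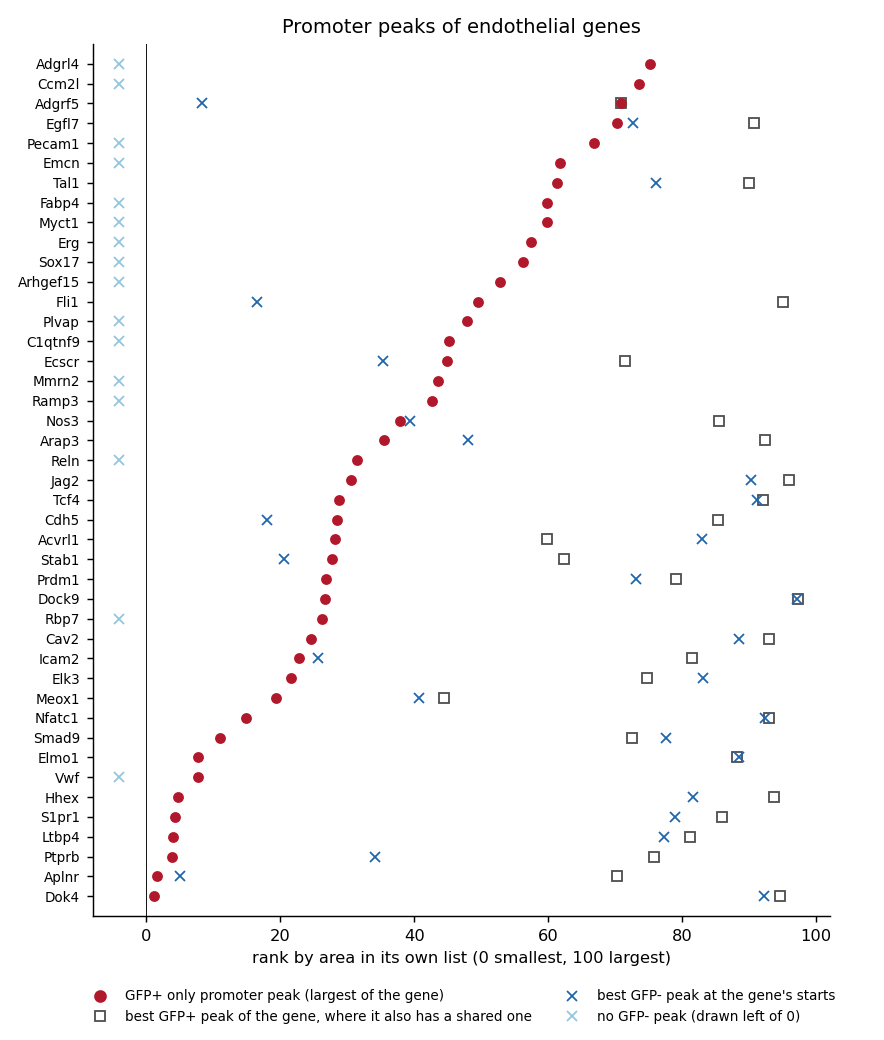
Rank by area within its own list (x axis) of promoter peaks at the 43 genes of endothelial function with a GFP+ only promoter peak (y axis), ordered by the largest such peak (filled circle). Squares give the best GFP+ peak where the gene also had a shared one, and crosses the best GFP- peak, drawn left of 0 in a pale shade for the 16 genes without one.

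The lists for single pathways were short and their intervals wide. For the 10 of 40 transcription factors the interval of the share was 14.2 to 40.2%, and for the 7 of 27 junction genes, the highest share at 25.9%, it was 13.2 to 44.7%. The lowest share was 6.25% for Notch genes (1 of 16, 1.11 to 28.3%), an interval that includes the share of all genes. The study's own endothelial list, which was drawn from single-cell RNA-Seq of other hearts and not from these libraries, gave 38 of 176 genes (21.6%, 16.1 to 28.2%). Its members included, besides genes named above, *Gimap1*, *Cd300lg*, *Btnl9*, *Clec1a*, *Hspa12b*, *Timp4* and *Tspan13*. The study's lists of non-specific, cardiomyocyte and fibroblast genes gave 21 of 726 (2.89%), 2 of 110 (1.82%) and 2 of 242 (0.826%), near the share of all genes.

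**Figure D3:**
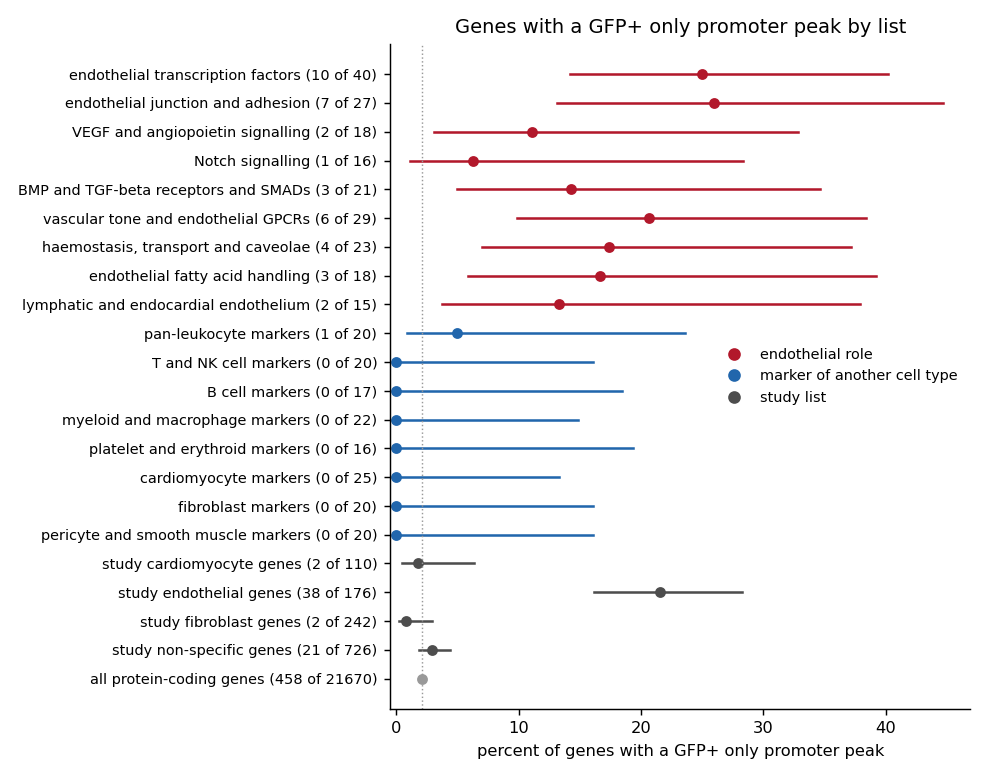
Percent of the genes of each list with a GFP+ only promoter peak (x axis), with Wilson 95% intervals, for 9 lists of endothelial function, markers of other cell types, the study's lists and all protein-coding genes. Counts stand beside each name and the dotted line marks the share of all genes, 2.11%. The lists of endothelial function range from 6.25% to 25.9%, and 7 of 8 marker lists of other cells are at 0. The upper limits of these short lists at 0 run from 13.3% to 19.4%, all above the share of all genes. The lists of endothelial function were compiled with earlier results of these data known.

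For markers of other cell types the counts were too low to be told apart from the share over all genes, 2.11%. Of 140 markers of T and NK cells, B cells, myeloid cells, platelets and erythroid cells, cardiomyocytes, fibroblasts, pericytes and smooth muscle, 0 had a GFP+ only promoter peak, which allows a share of up to 2.14% by the floor of 3 counts of the total, and of up to 2.67% by the Wilson interval. Both limits include the share over all genes. Promoter peaks of any kind were called in GFP+ nuclei at 45 of these 140, and at 215 of the 235 genes of endothelial function. Of 20 pan-leukocyte markers 1 had a GFP+ only promoter peak, *Itgal*, an integrin chain of leukocytes, through a small peak at an alternative start (rank 3.82) that was 217 bp from a GFP- peak. With these markers the total was 1 of 160 (0.625%, Wilson interval 0.110 to 3.455%), which also includes the share over all genes. In the study's lists the cardiomyocyte genes with a member were *Fgf12* (28.7) and *Grb14* (2.48), and the fibroblast genes were *Fhl1* (32.7) and *Ltbp4* (4.06), which is also counted above under TGF-β signalling. *Fgf12*, *Grb14* and *Fhl1* had their members at alternative starts far from the principal start, at -117828 bp (upstream), 46991 bp and 54320 bp, and that start had peaks in both lists.

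Members at alternative starts usually belonged to genes whose main start was accessible in both populations. This was so for 122 of 172 (70.9%, 63.8 to 77.2%), while the main start had no peak in either list for 40, a GFP+ peak only for 5 and a GFP- peak only for 5. Peaks in both lists are common among genes in general. Of all 21670 protein-coding genes, 12902 (59.5%) had a GFP+ promoter peak at any coding start. Only 296 of these had no GFP- one. The same share for main starts alone was not computed, so the 70.9% is a description. The summits of the members at alternative starts lay at a median distance of 11995 bp from the nearest principal start of the gene (quartiles 2451 and 40168 bp), 93 of them over 10000 bp, and 71.5% were downstream of it. Their summits were in an intron in 66.9% of cases, against 38.8% at main starts.

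The 15 largest members at alternative starts included broadly expressed genes. *Mthfd1*, an enzyme of folate metabolism, had a member of rank 75.1 that was 52105 bp inside the gene and 31 bp from a GFP- peak, and its main start ranked 91.1 in GFP+ and 92.7 in GFP- nuclei. *Gatad2a*, a subunit of the NuRD complex, had one at 68.0, 15090 bp from any GFP- peak, and a main start at 98.4 and 98.6. *Ercc1*, a DNA repair endonuclease subunit (60.7), *Nisch* (nischarin, 56.2) and *Nck1*, an adaptor protein (54.5), had the same arrangement. Regulators of the cytoskeleton and of GTPases also appeared, namely *Shroom4* (63.9, 74795 bp from a GFP- peak) and *Prex1*, a Rac exchange factor (63.9, 74683 bp inside the gene). *Cracr2b* (64.4), *Hspa12b*, a heat shock protein of endothelium (59.2), and *Ica1* (54.96) had peaks at the main start in both lists too, as had all the genes of this paragraph so far. *Nepn* (nephrocan, 75.1) and *Etl4* (54.4) had no peak at the principal start in either list. The remaining 3 of the 15 were the members of *Egfl7*, *Erg* and *Sox17* described above.

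Of the 458 genes, 238 (52.0%) also had a shared promoter peak and 204 (44.5%) had no GFP- peak at any protein-coding start. Over all 21670 protein-coding genes, 13302 had a GFP- promoter peak and 12902 a GFP+ one, of which 296 had no GFP- peak. Both shares depend on the rule that chose the members and are a description. There were 30 genes with 2 members, and no gene had more. Ordered by their larger member, the first were *Lnx1*, *Egfl7*, *Slc16a11* (60.1), *Erg*, *Sox17*, *Nck1*, *Etl4*, *Slc9a3r2* (52.7), *Fli1* and *Tm6sf1* (48.7). The others were *Lasp1*, *Fam189a1*, *Mmrn2*, *Lrtm2*, *Cyp2ab1*, *Msmp*, *Tmem255b*, *Wfikkn1*, *Cpne4*, *Crmp1*, *Cd24a*, *Nrros*, *Rps6kl1*, *Icam2*, *B3gnt3*, *Lancl3*, *Vsig2*, *Prnd*, *Rbpms* and *Rnd1*, with best members from rank 47.4 for *Lasp1* down to 9.46 for *Rnd1*. No GFP- peak was found at the starts of 16 of the 30.

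Members were found on all 19 autosomes and the X chromosome, and some stood close together. These groups were noticed after the values were seen. On chromosome 6, from 48646941 to 48747416, the genes *Gimap8*, *Gimap9*, *Gimap4*, *Gimap1* and *Gimap5* each had a member at the main start (ranks 67.3, 53.5, 65.0, 52.1 and 3.10), and of these only *Gimap5* had a GFP- peak at its main start. The *Gimap* genes encode GTPases best known from lymphocytes, and of these 5, *Gimap1* and *Gimap4* are in the study's endothelial list. *Gimap6*, of the same family, had no member, and its best promoter peak ranked 74.3 in GFP+ and 59.0 in GFP- nuclei. In the same chromosome's *Hoxa* cluster, from 52191059 to 52260510, *Hoxa4*, *Hoxa5*, *Hoxa7* and *Hoxa13* had members at ranks 19.3, 35.0, 9.55 and 23.1, and at the *Hoxb* cluster *Hoxb6* and *Hoxb4* had members at 5.70 and 4.09. HOX factors specify position along the body axis. All 6 HOX members had CpG-rich windows, unlike the 5 *Gimap* members, of which none did.

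Some GFP+ only peaks were at a start that also had a GFP- peak. For 119 of the 479 peaks a GFP- summit lay within 1000 bp of the same start, and for 360 none did. Of the former, 4.20% had their summit within 100 bp of the nearest start and 74.8% over 500 bp away. Of the latter, 35.3% were within 100 bp and 22.2% over 500 bp. These shares are a description, since a member was chosen for not overlapping a GFP- peak and so cannot lie where the GFP- peak at the same start does. The median gap between a member and the nearest GFP- peak was 2668 bp. It was under 100 bp for 19 members, under 500 bp for 135 and over 10000 bp for 127. When only the 360 were counted, 26 of the study's 176 endothelial genes (14.8%) had a member, against 1.60% over the whole set of protein-coding genes.

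GFP+ only promoter peaks were spread more widely around the start than shared ones. These positions are a description, since the rule keeps a member from lying where a GFP- peak does. The summit was within 100 bp of the nearest start for 27.6% of members (23.7 to 31.7%) and 64.4% of shared promoter peaks, a difference of -36.8 points (-40.7 to -32.6). It was upstream of the start for 48.6% against 66.1%, in an intron for 48.9% against 20.97%, and in a coding exon for 11.5% against 3.57%. A main start was concerned in 64.1% (59.7 to 68.3%) against 88.4%, a difference of -24.3 points (-28.8 to -20.1). Of the 360 members with no GFP- summit at the start, 35.3% were within 100 bp of the nearest start and 50.3% upstream of it. Of the same 360, 42.8% were in an intron, 11.7% in a coding exon and 63.1% at a main start. Peak size moved with the shares at main starts and upstream, and the other positions were not compared at matched size. Among GFP+ peaks with a rank of at most 50, which include 420 of the members, main starts made up 64.0% of members and 72.7% of shared promoter peaks, a difference of -8.62 points (-13.7 to -3.74). Upstream summits were then 46.7% against 52.2%, a difference of -5.54 points (-10.7 to -0.284). GFP- only promoter peaks resembled the members more, with 70.0% at a main start and 38.7% within 100 bp.

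**Figure D4:**
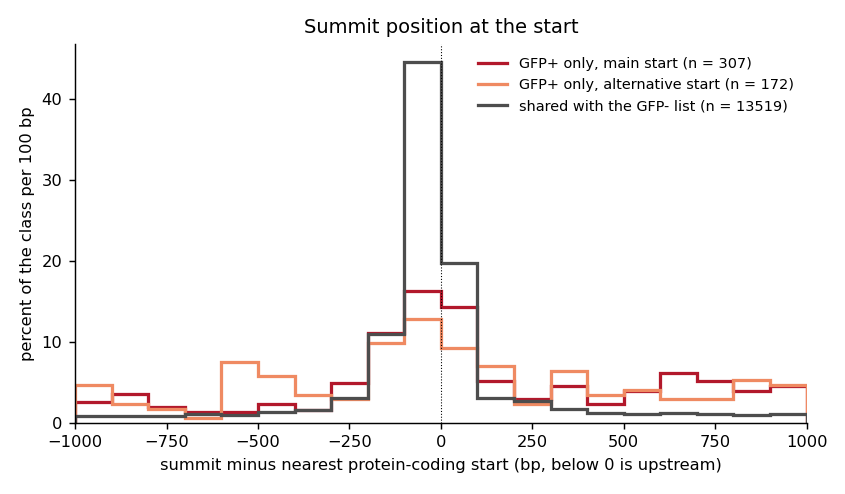
Percent of each class per 100 bp (y axis) by the distance of the summit from the nearest protein-coding start in bp (x axis, negative is upstream). Shared promoter peaks concentrate within 100 bp of the start (64.4%), and GFP+ only peaks at main and alternative starts are spread over the whole window (30.6% and 22.1% within 100 bp). GFP+ only peaks cannot lie where a GFP- peak does, so their positions are a description.

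The sequence at the summits of members was poorer in CpG than at shared promoter peaks. A window of 200 bp around the summit was called CpG-rich when the ratio of observed to expected CpG exceeded 0.6 and GC exceeded 50%. This held for 23.2% of members (19.6 to 27.2%), 72.1% of shared promoter peaks, 27.7% of GFP- only promoter peaks, 2.09% of GFP+ only peaks away from starts and 47.0% of all protein-coding starts. The difference from shared promoter peaks was -48.9 points (-52.5 to -44.8). Among peaks with a rank of at most 50 it was -10.5 points (105 of 420 members against 35.5%, interval -14.97 to -5.70), and against GFP- only promoter peaks -4.48 points (-8.80 to 0.127), which includes 0. Among the 59 members with a rank over 50, 10.2% were CpG-rich, against 78.4% of shared promoter peaks there. Main starts were CpG-rich more often than alternative starts, 29.6% against 11.6% (difference 18.0 points, 10.6 to 24.7). Median GC was 55.5% in members and 65.0% in shared promoter peaks. At endothelial genes 5 of 49 members were CpG-rich, namely those of *Plvap*, *Reln* and the alternative starts of *Hhex*, *Sox17* and *Fli1* (the larger of its pair).

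ERG/FLI1 form is only a label here for the ETS word CAGGAAGT, and the form these factors prefer was not tested. The word CAGGAAGT was more frequent at members than at shared promoter peaks. It was searched on both strands and occurred in 4.80% of members (23 of 479, 3.22 to 7.10%), 2.46% of shared promoter peaks, 2.23% of GFP- only promoter peaks, 5.98% of GFP+ only peaks away from starts and 2.26% of windows at all protein-coding starts. The difference from shared promoter peaks was 2.34 points (0.734 to 4.65) over all windows, 2.13 points (0.0862 to 5.04) between CpG-poor windows and 2.45 points (0.627 to 4.99) among peaks with a rank of at most 50. The difference from shared promoter peaks included 0 when a shared peak had to overlap by 50% of both peaks (0.606 points, -0.131 to 1.51), among the 59 members of rank over 50 (2.59 points, -0.759 to 11.4) and with the same limit on the p-value of the summit (3.56 points, -0.838 to 17.1). The difference from GFP+ only peaks away from starts, -1.18 points (-2.85 to 1.17), included 0. Genes with the word, named after the matches were seen, included *Sox17*, *Elk3*, *Elmo1*, *Gimap9*, *Inpp5d*, a phosphatase of blood cells, and *F2rl3*, a thrombin receptor. Of the 23 members with the word, only 3 were among the 49 members at genes of the endothelial lists. The core CAGGAA lies within that word and was added after the longer word had been counted. It occurred in 34.4% of members and 18.5% of shared promoter peaks, and in 41.0% and 28.8% of CpG-poor windows. The core was in 20.89% of GFP- only promoter peaks and 19.98% of all starts. It was more frequent at GFP+ only peaks away from starts (43.93%) than at members, a difference of -9.48 points (-13.73 to -4.987). Between CpG-poor windows that difference included 0 (-3.285 points, -8.312 to 1.921).

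The other form of the ETS word, CCGGAAGT, contains a CpG and showed the opposite pattern. It was found in 0 of 479 members, which allows a share of up to 0.626% by the floor of 3 counts and of up to 0.796% by the Wilson interval, and in 6.29% of shared promoter peaks, 0.372% of GFP- only promoter peaks and 3.83% of all starts. Its core CCGGAA was in 8.56% of members and 21.2% of shared promoter peaks, and in CpG-poor windows in 7.34% and 9.42%, a difference of -2.09 points (-4.53 to 1.17) that included 0. The KLF/SP word GGGCGGG (13.8% of members, 43.6% of shared promoter peaks and 25.2% of all starts) and the NRF1 word GCGCATGCG (0.209% and 2.65%), both of which are common in CpG islands, were also less frequent at members than at shared promoter peaks. They were in 19.3% and 0.372% of GFP- only promoter peaks, and these words were not compared at matched peak size. Between CpG-poor windows the difference from shared promoter peaks was -1.88 points (-2.36 to -0.776) for CCGGAAGT and -10.6 points (-13.4 to -7.10) for the KLF/SP word, and it included 0 for the NRF1 word.

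The SOX word CCATTGT occurred in 3.55% of members (17 of 479, 2.23 to 5.61%), against 1.29% of shared promoter peaks, 0.967% of GFP- only promoter peaks and 1.90% of all starts. The difference from shared promoter peaks was 2.26 points (0.917 to 4.32), and 1.98 points (0.316 to 4.56) between CpG-poor windows, but it included 0 among the 59 members of rank over 50 (0.463 points, -0.949 to 7.77) and with the same limit on the p-value (interval -0.703 to 14.1 points). It was less frequent than at GFP+ only peaks away from starts, where it was in 5.99% (difference -2.45 points, -3.87 to -0.327), but between CpG-poor windows that difference included 0 (-2.01 points, -3.69 to 0.579). Genes with the word, again named after the matches were seen, included *Vwf*, *Amotl2*, an angiomotin family protein, *Tm4sf1*, a surface protein of endothelium, and *Ctnnb1*, which encodes β-catenin. Of the 17 members with the SOX word, only 1 was among the 49 members at genes of the endothelial lists. Both words were in 1 window, at an alternative start of *Clu* (clusterin). The FOX word TGTTTAC (3.13% against 1.64%), the GATA word AGATAAG (2.30% against 0.969%) and the TEAD word CATTCCA (3.55% against 1.90%) were also more frequent at members than at shared promoter peaks. For these 3 words the interval of the difference included 0 between CpG-poor windows, and also against GFP- only promoter peaks (2.83%, 2.23% and 2.75%).

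Other words were more frequent at GFP- only promoter peaks than at members. The AP-1 word TGACTCA was in 2.71% of members and 8.25% of GFP- only promoter peaks, a difference of -5.54 points (-7.49 to -3.23), and the palindromic E-box CAGCTG was in 14.4% and 22.1%, a difference of -7.68 points (-11.3 to -3.64). Shared promoter peaks held these 2 words in 2.345% and 12.6%, and all starts in 2.70% and 12.5%. At GFP+ only peaks away from starts they were in 6.44% and 16.4%. Between CpG-poor windows the AP-1 word was in 3.26% of members, 4.61% of shared and 9.87% of GFP- only promoter peaks. For the E-box these shares were 14.1%, 19.1% and 25.4%. Neither word was compared at matched peak size. For the MEF2 word CTAAAAATA (0.626% of members and 0.518% of shared promoter peaks) and the RBPJ word CGTGGGAA (0.626% and 0.710%) no difference was detectable at these counts. None of the 12 words was in the window of 280 of the members, including those of *Pecam1*, *Emcn*, *Adgrl4* and *Myct1*, which says only that these letters are not in those 200 bp.

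**Figure D5:**
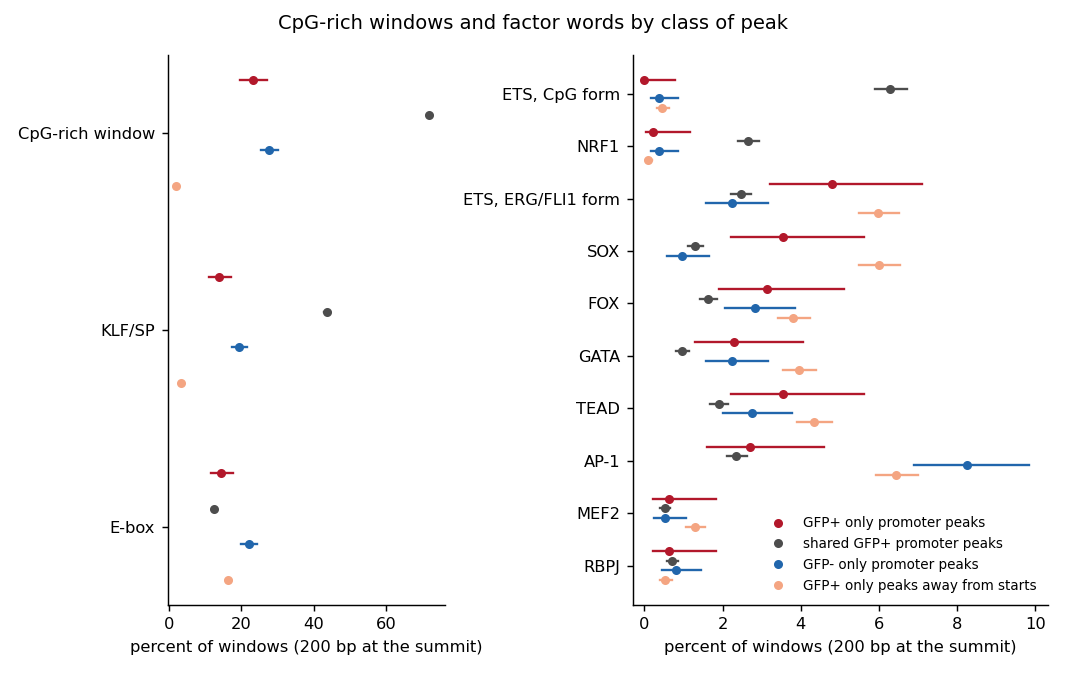
Percent of 200 bp windows at the summit (x axis) that are CpG-rich or hold a factor's word (y axis, by factor name), with Wilson 95% intervals, for GFP+ only promoter peaks, shared promoter peaks, GFP- only promoter peaks and GFP+ only peaks away from starts. The ETS word CAGGAAGT, labelled ERG/FLI1 form, is in 4.80% of GFP+ only and 2.46% of shared promoter peaks. The ETS word CCGGAAGT, labelled CpG form, is in 0% and 6.29%.

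Other GFP+ only peaks were often near the members. Within 50000 bp of 51.2% of members lay at least 1 other GFP+ only peak, against 39.6% of shared promoter peaks. The number was highest at *Adgrf5* with 9, followed by *Fli1*, *Elk3*, *Ablim1* and *S1pr1* with 7 each and *Egfl7*, *Pitpnc1* and *Dab2ip* with 6 each. These peaks belong to the same contrast as the members and are given as values only.

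The edges of the definition were as follows. The members farthest from a start were at *Sidt1* (995 bp), *2810004N23Rik* (994 bp) and *Polr2e* (993 bp), and the nearest GFP+ only peaks that missed the limit of 1000 bp were at *Ccdc153* (1003 bp), *Lrrc73* (1003 bp) and *Lims2* (1004 bp). The members closest to a GFP- peak were at *Fli1* (12 bp), *Arhgap45* (27 bp) and *Mthfd1* (31 bp). The promoter peaks that overlapped a GFP- peak by the least were at *Letm2* (33 bp), *Fxyd7* (52 bp) and *Mroh5* (59 bp). Under 10% of the GFP+ peak was covered in only 3 of the 13519 shared promoter peaks.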

How the data were processed

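Nuclei from whole hearts were sorted by GFP and profiled by ATAC-Seq in 4 libraries, 2 per population. According to the labels and the study's methods, the authors trimmed reads (fastp), aligned them to mm10, removed duplicates, reduced all libraries to equal read numbers and ran Genrich to call peaks on both replicates of a population together. The submitters' processing notes name Bowtie2 2.3.5.1, SAMtools 1.19, CASAVA 1.4, Picard and Genrich. Each deposited list gives a peak's area (signal, at least 200), the −log10 p-value of its summit and a score that is capped at 1000 in 82.1% of GFP+ peaks. A single list called from both libraries hides the spread between them, and a fixed minimum area makes a small peak absent rather than low.

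Peak overlaps, distances and windows were computed in Python 3.11.15 (numpy 2.4.6, pandas 2.3.3, pysam 0.24.0) from 54050 distinct protein-coding starts of GENCODE M21 and the GRCm38.p6 sequence from RefSeq. All 32619 RefSeq promoter sequences compared were identical to that genome. Shares have Wilson intervals, differences of shares Newcombe intervals and medians order-statistic intervals, all at 95%, and a share of 0 also has a floor of 3 counts of its total. Peaks are not replicates, so no p-value was computed. Scripts were tested on simulated data. The counts of 1 gene list are given only within the total over the 10 lists, and only a selection of promoter sequences is printed. The members and lists were chosen with earlier results of these data known.

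The genes named were those of the 10 endothelial lists with a member, the 15 largest members at each kind of start, any marker of another cell type with a member, genes with at least 2 members, and the 3 peaks just inside and outside each limit. Genes named beside motif words and gene clusters were chosen after their values were seen. The alternatives varied the overlap, the size of peaks, the distance to a start, the transcripts, the definition of a main start, the window and the CpG limits. The 6-letter cores, the restriction to ranks of at most 50 and the restriction to starts without a GFP- summit were added after seeing the data.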

Additional observations from a re-analysis of the deposited data

How the results depend on the processing

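Of 67 alternative values, 28 stayed within the interval of the reported value and 39 did not. Requiring an overlap of 50% of both peaks for a shared peak gave 1958 GFP+ only promoter peaks (14.0%), 73.6% of them at a main start, a median GC of 59.0%, 37.3% CpG-rich windows, the ETS word in 3.06%, and a member at 39.8% of the study's endothelial genes. The difference from shared peaks for the ETS word then included 0 (0.606 points, -0.131 to 1.51). With only GFP+ peaks of rank over 50 by area there were 59 members (0.509%), with a median GC of 53.5%, 10.2% CpG-rich windows, the SOX word in 1.69% and 7.95% of study endothelial genes. With the same limit on the −log10 p-value there were 33 (0.293%), with 72.7% at a main start, a median GC of 52.5%, 3.03% CpG-rich windows and 6.25% of study endothelial genes. In both of these sets the differences in the ETS and SOX words included 0. Leaving out members within 500 bp of a GFP- peak gave a share of 2.46% and 14.8% of study endothelial genes, and so did leaving out starts with a GFP- summit (14.8%). Limits of 500 bp and 250 bp from the start gave 310 (2.49%) and 232 (2.06%) members, with 15.3% of study endothelial genes for the latter.

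All transcripts of protein-coding genes gave 729 members (4.59%), 42.1% at a main start, and transcripts tagged basic gave 2.87% and 81.0%. With the gene record's own start as the main start the share was 55.9%. Relative to the principal start 38.8% of summits were upstream. Windows of 400 bp gave a median GC of 53.8% and the SOX word in 6.89%, stricter CpG limits gave 14.4% CpG-rich windows, and the 6-letter cores occurred in 34.4% (ETS) and 8.77% (SOX). The causes were not tested. In every one of these alternatives that had a reference, the share at main starts and of CpG-rich windows stayed below that of shared peaks, and the share of study endothelial genes above that of all genes, with intervals that did not include 0.

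No paired analysis was possible because each list was called from both replicates together, and no replicate was left out for the same reason. The lists hold no read counts, so depth, replicate spread and signal below the area minimum were not assessed, and an absent GFP- peak does not show closed chromatin.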
